A study of Homo sapiens with 6 samples.

Results

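The cell-cell junction genes described here encode E-cadherin and proteins that work with it or beside it: CDH1, CTNND1, CTNNA1, JUP, PVRL2, PKP2, DSP, DSG2 and DSC2. They were listed by name, and each was represented by the array row that carries its symbol alone, the brighter row being kept where there were several. All 9 were found, each with exactly 1 transcript cluster (the probe sets of a gene, summarised as a unit), among 18708 clusters on the array. RNA came from PLC/PRF/5, an established human hepatocellular carcinoma line, collected 48 h after lipid transfection. The control group (3 arrays) received an siRNA (a short RNA that lowers the transcript it matches) against an irrelevant target (siGL2 in the design text, siGL1 to siGL3 in the sample descriptions, read here as replicate numbers), and the knockdown group (3 arrays) received siRNAs against SLU7, a splicing factor of the second catalytic step. Both groups are the same untreated line apart from the siRNA, and no gene was deleted in either. The series title ties SLU7 to differentiation, metabolism and quiescence of the liver.

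In epithelial cells, E-cadherin spans the membrane and binds E-cadherin of the neighbouring cell. Its cytoplasmic tail holds p120-catenin, which keeps it at the surface, and beta-catenin or plakoglobin, which pass the link through alpha-catenin to actin. Desmosomes are a separate junction in which desmogleins and desmocollins are tied by plakoglobin, plakophilins and desmoplakin to keratin filaments. Hepatocytes carry both kinds of junction, and E-cadherin is widely followed in liver tumours as a mark of epithelial character.

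Values are log2 expression units, so a step of 1 unit is a doubling. Whether replicates were separate cultures is not stated in the labels, so p-values reflect array-to-array spread alone, possibly technical. Control replicate 2 and SLU7 replicate 1 lay together, away from the remaining 4, along principal component 1 (36.6% of the variance), although they belong to different groups. SLU7 itself was 7.89, 7.01 and 7.24 with control siRNA and 5.84, 5.58 and 6.21 with SLU7 siRNA, a 2.84-fold lower mean with no overlap between groups (limma adjusted p = 0.0783, not past the 0.05 threshold). Of 10 hepatoma cell markers 1, ALB (albumin), was dim in both groups, meaning both means lay below 4.92, the lower quartile of cluster means. APOA1 (11.55 and 10.62, control and SLU7 siRNA means) and KRT18 (12.86 and 12.67) were bright. In mean log2 level these markers ran from 8.25 to 8.48 over the control arrays and from 7.86 to 7.97 over the knockdown arrays, and 9 of 10 had a negative difference, with APOA1 (-0.93) and FGB (-1.07), 2 plasma protein genes, among the 5 without overlap. Over all clusters, 9.21% were lower without overlap and 18.9% had no overlap in either direction. None of the 10 was called, where 0.433% of all clusters were, and their part in the junction results was not tested. Fibroblast and stellate cell markers (10 measured) averaged 4.92 to 5.23 in control and 4.84 to 5.42 in knockdown arrays, and blood and endothelial markers (8 measured) 6.10 to 6.17 and 5.80 to 6.02. None of either list was called, and no marker is listed at 0. PTPRC, the pan-leukocyte marker, lay at 2.05 and 2.13 and was the only 1 of those 8 dim in both groups. The other 7 were not dim, and LYZ (lysozyme) was bright at 10.07 and 9.17. LYZ (-0.89) and CDH5 (endothelial cadherin, -0.29) were the 2 of those blood and endothelial markers whose groups did not overlap, and their part was not tested. For CDH5 the nearest arrays were 0.037 log2 units apart and the difference was -0.096 without SLU7 replicate 3.

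CDH1 fell after SLU7 siRNA and was the only one of the 9 genes to pass the test over all clusters. CTNND1, which encodes the p120-catenin that binds the juxtamembrane tail of E-cadherin, differed by nearly as much and narrowly missed the threshold. DSP and CTNNA1 had smaller differences with no overlap between the groups, and in the other 5 genes the groups overlapped. Thus 4 of the 9 genes had knockdown arrays all below the control arrays and none the reverse, where over the whole array 9.21% of clusters were lower and 9.64% higher without overlap (18.9% in all). All 9 differences were negative, with a median of -0.45 log2 units, against a median of 0.0043 and 49.5% negative over all clusters. The signs of JUP, PVRL2 and DSC2 turned when certain single arrays were left out. The 9 genes were chosen with results of these data known, so these shares describe the list and test nothing. A similar lean was seen in the 10 hepatoma cell markers, with a median of -0.55, 9 negative and 5 lower without overlap. In total RNA from a culture, fewer cells holding a transcript and less of it per cell cannot be told apart.

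**Figure D1:**
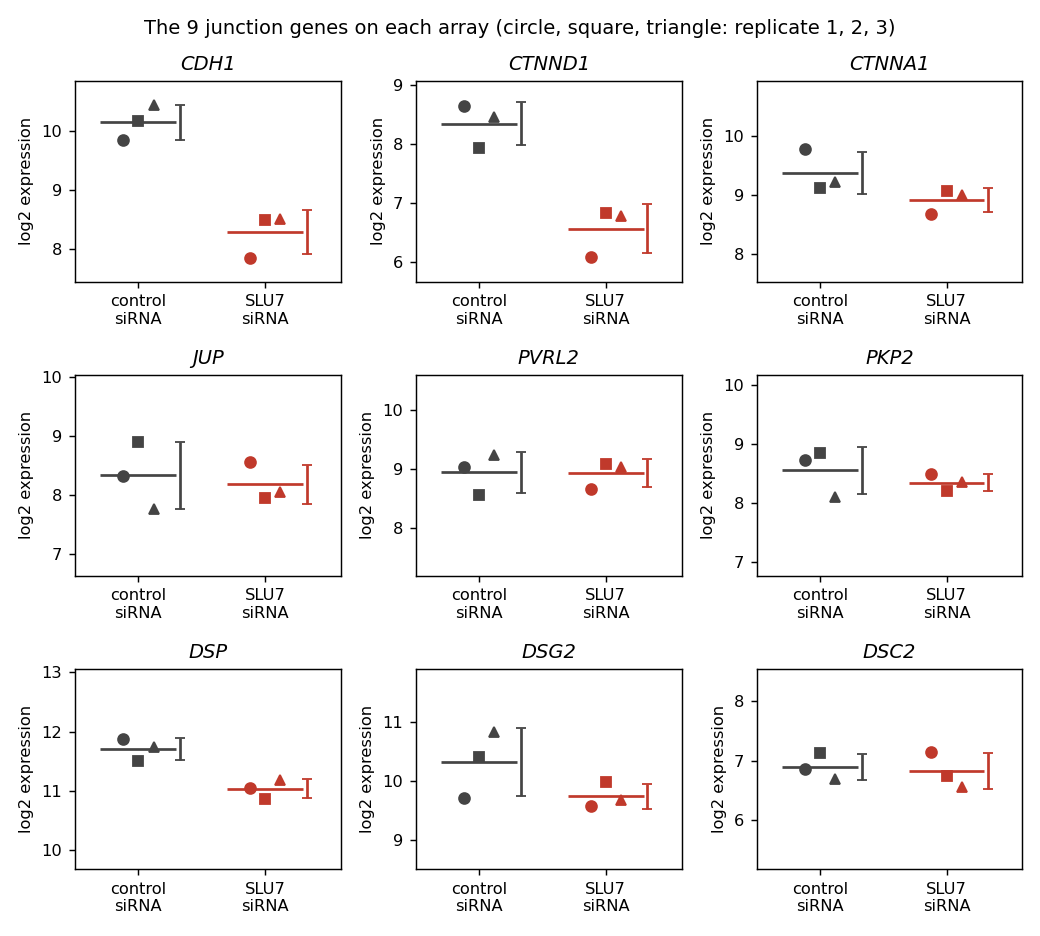
Log2 expression (vertical axis, the same span in each panel) of the 9 junction genes on each array, with control siRNA in grey and SLU7 siRNA in red. Horizontal lines are group means and bars are 1 SD (n = 3). The groups lie far apart for CDH1 and CTNND1, lie apart by less for DSP and barely for CTNNA1, and overlap in the other 5 panels.

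CDH1 (transcript cluster 3666455) encodes E-cadherin, the adhesion receptor itself. It read 9.85, 10.17 and 10.44 on the control arrays (replicates 1 to 3) and 7.85, 8.50 and 8.52 on the knockdown arrays. Every knockdown array lay below every control array, with 1.33 log2 units between the nearest arrays of the groups. The mean went from 10.15 ± 0.30 to 8.29 ± 0.38 (SD, n = 3), a difference of -1.86 ± 0.30 (SE) log2 units that left 27.6% of the control level (95% interval 17.3% to 44.0%). The limma adjusted p over all clusters was 0.0485, just inside the threshold, where 0.299% of clusters were called lower and 0.433% were called at all. By exact permutation (two-sided) p was 0.1, the lowest value possible with 3 arrays against 3. By difference, CDH1 had the 84th most negative of the 18708 values. Its difference was -2.31 between SLU7 replicate 1 and control replicate 2, the stand-apart pair, and -1.63 in the remaining 4 arrays. The call did not survive the loss of any 1 of the 6 arrays (limma adjusted p from 0.079 to 0.193, with differences from -2.01 to -1.64), nor a block for replicate number (adjusted p = 0.161). No cluster of the whole array was called in those settings, so the loss is not particular to CDH1. Its limma adjusted p was 0.119 without both stand-apart arrays and 0.0258 with them as a block. It was 0.0218 without dim clusters, 0.00883 with an intensity trend and robust prior and 0.0155 with array weights.

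CTNND1 (cluster 3331590) read 8.65, 7.94 and 8.45 with control siRNA and 6.08, 6.83 and 6.79 with SLU7 siRNA. These groups were also separate, by 1.11 log2 units, and control replicate 2 was the lowest control array. The difference was -1.78 ± 0.32 (SE), which left 29.1% of the control level (95% interval 17.6% to 48.0%), with an adjusted p of 0.0568 in limma. Within the stand-apart pair it was -1.85 and within the other 4 arrays -1.75. Adjusted p was under 0.05 without the dim clusters (0.0268), with an intensity trend and robust prior (0.0136), with array weights (0.016) and with the stand-apart arrays as a block (0.0197). It was 0.0578 with quantile normalization, 0.111 without both stand-apart arrays and 0.0698 to 0.203 without any 1 array, where the difference ran from -1.99 to -1.54. CTNND1 transcripts are known for alternative exons, and the single value per gene cannot show which of them were lower.

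CTNNA1 (cluster 2831033) encodes alpha-catenin, the link from the cadherin complex to actin. It read 9.77, 9.11 and 9.23 with control siRNA and 8.69, 9.08 and 9.0 with SLU7 siRNA. The groups did not overlap, but the nearest arrays were only 0.039 log2 units apart. The difference of -0.45 ± 0.28 (SE) did not pass (adjusted p = 0.575), and it was -0.25 without control replicate 1, the highest array.

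JUP (cluster 3757370) encodes plakoglobin, an armadillo protein shared by adherens junctions and desmosomes. It read 8.32, 8.90 and 7.77 with control siRNA and 8.56, 7.94 and 8.04 with SLU7 siRNA, so the groups overlapped broadly. Its difference of -0.15 ± 0.34 had a 95% interval of -0.93 to 0.64 and turned to 0.14 without control replicate 2. PVRL2 (cluster 3835839), now named NECTIN2, encodes nectin-2, an immunoglobulin-type adhesion molecule of the adherens junction that binds afadin. Its arrays read 9.03, 8.55 and 9.23 against 8.66, 9.09 and 9.03, all knockdown values lying within the control range. The difference of -0.01 ± 0.28 (95% interval -0.65 to 0.63) was the closest to 0 of the 9, and it was above 0 without control replicate 1, control replicate 3 or SLU7 replicate 1, reaching 0.13.

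Among the desmosomal genes, DSP had the clearest difference. DSP (cluster 2893838) encodes desmoplakin, which anchors keratin filaments to the plaque. It read 11.87, 11.50 and 11.74 with control siRNA and 11.05, 10.86 and 11.18 with SLU7 siRNA. The groups lay 0.32 log2 units apart at their nearest, and the spread was small (SD 0.19 and 0.16, n = 3). The difference of -0.67 ± 0.25 (SE) left 62.8% of the control level (95% interval 42.5% to 92.7%) and did not pass over all clusters (limma adjusted p = 0.287, unadjusted p = 0.0247, a level that 13.1% of clusters reached). It ranged from -0.77 to -0.59 when any 1 array was left out.

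DSG2 (cluster 3783557) encodes desmoglein-2, a desmosomal cadherin of simple epithelia. It read 9.70, 10.41 and 10.83 on the control arrays and 9.57, 9.97 and 9.68 on the knockdown arrays. Control replicate 1 fell inside the knockdown range, and the control SD of 0.57 was about as large as the difference of -0.57 ± 0.33. That difference did not pass (adjusted p = 0.542) and was -0.88 once control replicate 1 was left out and -0.32 once control replicate 3 was. DSC2 (cluster 3803015), its desmocollin counterpart, read 6.87, 7.13 and 6.68 against 7.15, 6.74 and 6.56. Here the highest array of all was a knockdown array, and the difference of -0.07 ± 0.27 (95% interval -0.69 to 0.54) was above 0 without control replicate 2 (0.044) or SLU7 replicate 3 (0.055). PKP2 (cluster 3450268) encodes plakophilin-2, an armadillo protein of the desmosomal plaque. Its arrays read 8.74, 8.84 and 8.11 against 8.50, 8.20 and 8.35, all knockdown values lying within the control range. The difference was -0.21 ± 0.28 (95% interval -0.85 to 0.43), and it was -0.44 without control replicate 3 and -0.07 without control replicate 2.

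**Figure D2:**
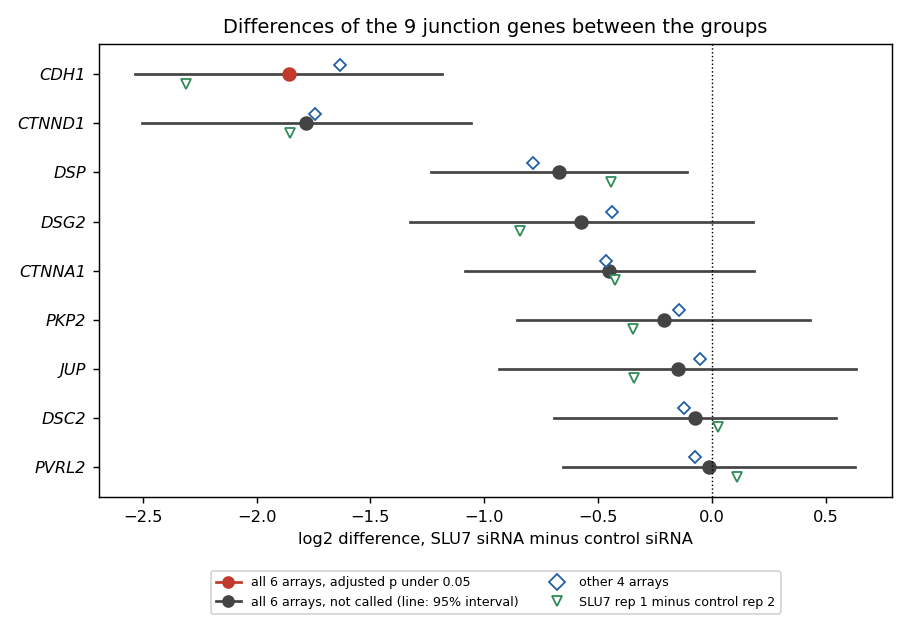
Log2 difference, SLU7 siRNA minus control siRNA (horizontal axis), of each of the 9 genes over all 6 arrays (filled circle, red where the limma adjusted p was under 0.05) with its 95% interval, in the other 4 arrays (diamond) and between the stand-apart pair (triangle, single arrays with no error). CDH1 at -1.86 and CTNND1 at -1.78 lie well to the left of the other 7, which run from -0.67 to -0.01.

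The genes varied in different ways between replicates. JUP, PKP2 and DSC2 were highest of their control group in replicate 2, by 0.85, 0.42 and 0.35 log2 units over the mean of the other control arrays. The same 3 genes were highest of their knockdown group in SLU7 replicate 1, by 0.56, 0.22 and 0.50, so all 3 ran high on both stand-apart arrays. CTNND1, CTNNA1 and PVRL2 ran low on both, by -0.62, -0.39 and -0.58 in control replicate 2 and by -0.73, -0.35 and -0.40 in SLU7 replicate 1. CDH1 was near the mean of the other controls in control replicate 2 (0.022) and low in SLU7 replicate 1 (-0.66). DSP (-0.31 and 0.035) and DSG2 (0.14 and -0.26) went opposite ways on these arrays. What the stand-apart arrays share besides these values is not given in the sources used here.

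Setting CDH1 against each other gene on the same array asks whether it was lowered by more than its partners. CDH1 minus CTNND1 differed between the groups by -0.08 log2 units (exact two-sided permutation p = 0.9), and the 3 knockdown arrays all lay inside the control range. Leaving out 1 array moved that difference between -0.38 and 0.13. Relative to the control mean, that quantity was -0.61, 0.43 and 0.18 on the control arrays and -0.03, -0.13 and -0.08 on the knockdown arrays. Against each of the other 7 genes, CDH1 was relatively lower on every knockdown array than on every control array. These differences ran from -1.19 against DSP and -1.29 against DSG2 through -1.41 against CTNNA1, -1.65 against PKP2, -1.71 against JUP and -1.79 against DSC2 to -1.85 against PVRL2. In each of the 7 the exact permutation p was 0.1, the smallest possible, or 0.114 after Benjamini-Hochberg adjustment over the 8 comparisons, so none could pass in this design. All 8 share the same CDH1 values and are not independent of each other. CDH1 had the most negative difference of the 9 genes, so the direction of all 8 followed from values given above. They describe the size of the gap only.

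**Figure D3:**
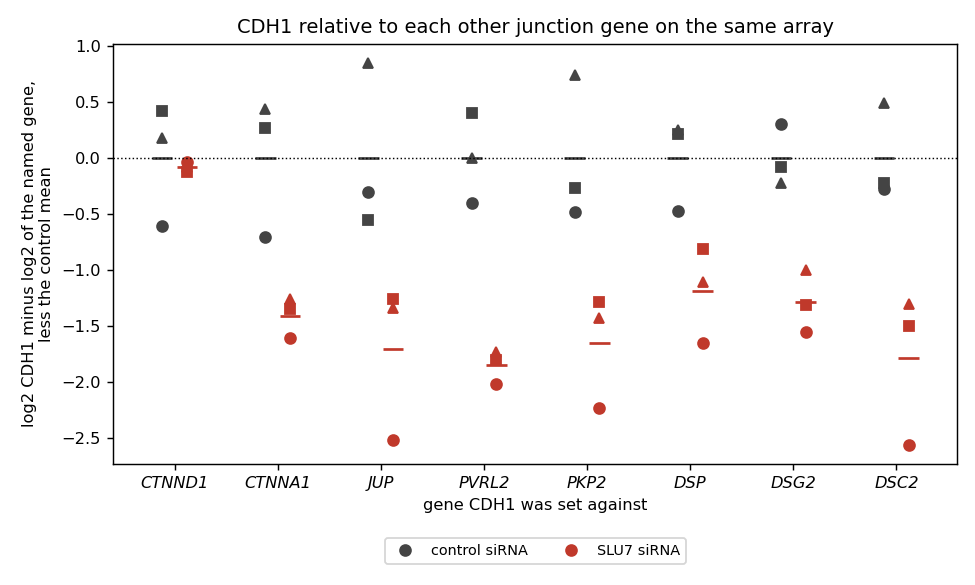
Log2 CDH1 minus log2 of the named gene on the same array, less the control mean (vertical axis), for the 8 other genes, with control siRNA in grey, SLU7 siRNA in red circles, squares and triangles for replicates 1, 2 and 3, and bars at the group means. Red points sit among the grey ones for CTNND1 and below all grey ones for the other 7 genes.

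Across all 16286 other clusters with a single symbol, those nearest to CDH1 in profile were PCK2, KLHDC2, FICD, NNMT and LGALS1. Likeness was the mean absolute distance between log2 values over the 6 arrays, each cluster first set to its own mean, and was 0.113 for PCK2 and 0.137, 0.138, 0.146 and 0.146 for the next 4. PCK2, the mitochondrial phosphoenolpyruvate carboxykinase, read 10.91, 11.19 and 11.26 with control siRNA and 9.19, 9.53 and 9.43 with SLU7 siRNA. NNMT, nicotinamide N-methyltransferase, read 12.34, 12.25 and 12.40 against 10.01, 10.57 and 10.81, and LGALS1, galectin-1, 10.11, 9.96 and 10.51 against 7.90, 8.46 and 8.26. FICD reached a dim 3.03 to 3.67 with SLU7 siRNA. Since likeness to a gene that fell selects genes that fell, these differences are descriptions only. Of the other 8 junction genes, CTNND1 came closest at 0.232, in position 28, followed by DSP in position 975 (0.594) and DSG2 in position 1348 (0.643).

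Other adherens junction genes, 29 measured, included none called over all clusters by limma, where 0.433% of all clusters were called. Their median difference was -0.08, 18 were negative, and 7 had lower knockdown arrays with no overlap, against 9.21% of all clusters. By the fixed rule the largest were PTPRF (-2.08 ± 0.43 SE, adjusted p = 0.0748), the receptor tyrosine phosphatase LAR, and ACTN4 (-1.48 ± 0.25, adjusted p = 0.0515), alpha-actinin-4, an actin crosslinker. PTPRF went from 8.95 ± 0.79 to 6.87 ± 0.44 and ACTN4 from 10.20 ± 0.25 to 8.72 ± 0.08 (SD, n = 3). Both had a limma adjusted p under 0.05 without dim clusters (PTPRF 0.0393, ACTN4 0.0231), with a trend and robust prior (0.0223, 0.00996) and with array weights (0.0408, 0.0153). ACTN4 also did with quantile normalization (0.0484) and with the stand-apart arrays as a block (0.0258). Neither passed without any 1 array (0.102 to 0.245 for PTPRF, 0.0704 to 0.208 for ACTN4). The other 5, named after their values were seen, were the scaffold IQGAP1 (-1.26), ACTN1, the other non-muscle alpha-actinin (-1.11), PLEKHA7, a p120-catenin partner (-0.81), LIMA1, an actin-binding LIM protein (-0.64), and the poliovirus receptor PVR (-0.61). None of these passed (adjusted p from 0.0707 for IQGAP1 to 0.435 for LIMA1). The LIMA1 mean with SLU7 siRNA was a dim 4.35, below the 4.92 limit. The nearest arrays of the groups were 0.053 log2 units apart for LIMA1 and 0.076 for PLEKHA7. They were 0.38 apart for PVR, 0.82 for ACTN1 and 1.04 for IQGAP1. CTNNB1, the beta-catenin that binds the E-cadherin tail, was 10.93 ± 0.21 and 10.88 ± 0.21 (difference -0.05 ± 0.26), and CDH2, N-cadherin, was 9.78 ± 0.24 and 9.63 ± 0.11 (-0.15 ± 0.25), both with overlapping groups. Both were singled out as well-known adherens junction genes after their values were seen.

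The other desmosome genes, 11 measured, had a median of -0.16 and a range of -0.31 to 0.28. In all 11 the groups overlapped, and none was called, where 18.9% of all clusters had no overlap and 0.433% were called. Of 7 keratins of simple epithelia none was called, with a median of -0.24. KRT18, the keratin partner of KRT8, was the only one without overlap, where 9.21% of all clusters were lower without overlap. It differed by -0.19 ± 0.23 log2 units, from 12.86 ± 0.14 to 12.67 ± 0.04 (SD, n = 3), with its nearest arrays 0.0086 log2 units apart. Keratin 8 and 18 genes have many near-identical pseudogenes, so their values are uncertain.

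Genes that act on E-cadherin showed no called member either. Over all clusters, 0.433% were called and 18.9% had groups without overlap (9.21% lower, 9.64% higher). Among 17 measured genes of E-cadherin processing, endocytosis and turnover the median was -0.03, with 2 lower and 3 higher without overlap. The largest of these that were not dim were EXOC3 (0.69 ± 0.25, adjusted p = 0.27), an exocyst subunit, and PIP5K1C (0.43 ± 0.26, adjusted p = 0.568), a lipid kinase that makes phosphatidylinositol bisphosphate at junctions. The nearest arrays of PIP5K1C were 0.017 log2 units apart, and its difference was 0.27 without SLU7 replicate 1. Among 10 measured repressors of CDH1 transcription the median was -0.04, and ZEB1, a zinc finger repressor that binds E-boxes, was the only one without overlap (6.45 ± 0.28 to 7.08 ± 0.23, SD, n = 3). Its difference of 0.63 ± 0.27 had an adjusted p of 0.364. SNAI1 (0.43 ± 0.26), SNAI2 (0.21 ± 0.27), ZEB2 (-0.21 ± 0.48) and TWIST1 (-0.18 ± 0.30), named as the classical repressors beside it, had overlapping groups. Among 11 measured activators of epithelial genes the median was 0.07. ELF3 was lower without overlap (-0.48 ± 0.24, adjusted p = 0.447) and KLF4 higher without overlap (0.54 ± 0.26, adjusted p = 0.448).

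**Figure D4:**
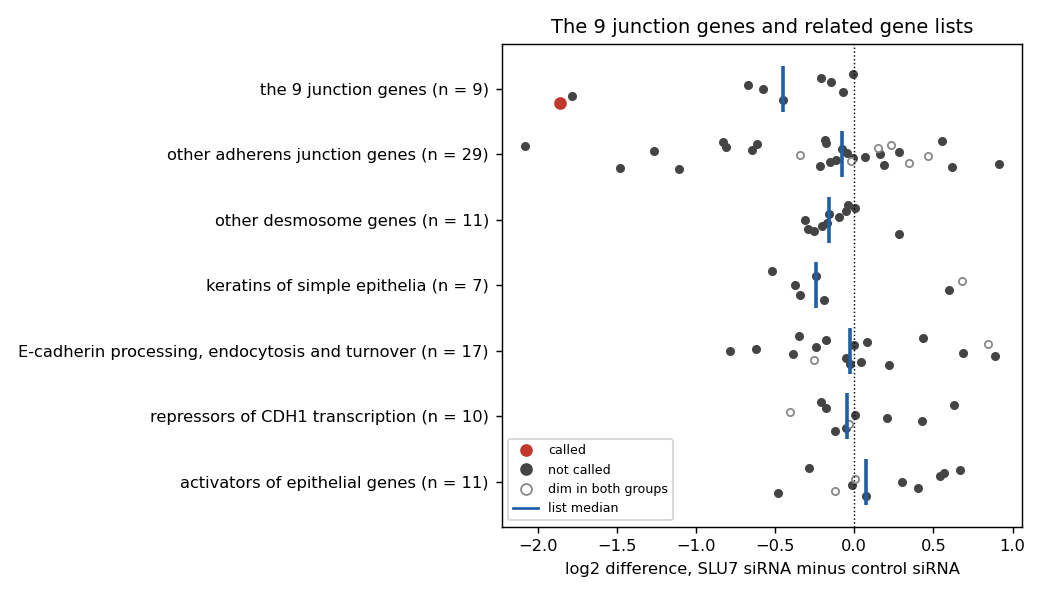
Log2 difference, SLU7 siRNA minus control siRNA (horizontal axis), of each gene in the 9 junction genes and 6 related lists. Points are genes (red called by limma, black not called, open where both group means were dim), spread vertically for visibility only, and blue bars are list medians, from -0.45 for the junction genes to 0.07 for the activators. CDH1 is the single red point. Cell type marker lists, among them the hepatoma markers (median -0.55), are not drawn.

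ZEB and SNAIL repressors recognise the E-box CAGGTG, so this word was sought on both strands (CACCTG being its reverse complement) in the 250 bases before each RefSeq transcription start (assembly GRCh38.p14). Of the 9 genes, 6 matched the RefSeq promoter table (CTNNA1, JUP, PVRL2 as NECTIN2, DSP, DSG2 and DSC2), with 11 starts in all, and CDH1, CTNND1 and PKP2 were not matched. The word was present before 4 of these 11 starts, in JUP, DSP, DSG2 and DSC2, and before 17.5% of all 35116 starts in the table. The 2 desmosomal promoters below show it in a gene whose groups lay apart (DSP) and in one whose groups overlapped (DSC2). They are given 5′ to 3′ on the gene's own strand, with the E-box in capitals.
DSP, chr6:7541421-7541670, plus strand: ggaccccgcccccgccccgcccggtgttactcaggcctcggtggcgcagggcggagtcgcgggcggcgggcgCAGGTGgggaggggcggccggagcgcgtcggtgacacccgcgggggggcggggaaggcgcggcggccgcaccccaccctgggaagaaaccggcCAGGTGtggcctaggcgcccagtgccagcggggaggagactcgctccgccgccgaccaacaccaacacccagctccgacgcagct
DSC2, chr18:31102422-31102671, minus strand: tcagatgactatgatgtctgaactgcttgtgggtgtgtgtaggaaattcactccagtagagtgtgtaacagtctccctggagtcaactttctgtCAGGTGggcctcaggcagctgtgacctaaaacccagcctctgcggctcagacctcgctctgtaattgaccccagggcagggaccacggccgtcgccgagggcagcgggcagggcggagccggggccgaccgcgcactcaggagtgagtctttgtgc
DSP holds it 178 and 85 bases before the start and DSC2 once, 156 bases before the start shown. DSG2 also has 2 copies (232 and 116 bases before the start), and the copies of JUP and of DSC2 each lie before only 1 of the gene's 2 starts. A match is a word in the sequence and not a measured site.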

How the data were processed

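Total RNA from 6 PLC/PRF/5 samples (3 control siRNA, 3 SLU7 siRNA) was profiled, 1 sample to an array, on the Affymetrix Human Exon 1.0 ST platform. The authors deposited log2 values, 1 per transcript cluster of the aroma.affymetrix core definition, per the labels. RMA, which corrects background, normalizes and summarises probes, is named in the submitters' processing notes. Its version and the genome build are unstated in the sources used here. A core summary per gene hides exon-level changes. Scanner files were not used here.

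Symbols came from GEO's platform annotation, updated through RefSeq synonyms (2179 changed). Groups were compared with limma 3.58.1 (R 4.3.3; lmFit, eBayes, group only, no filter) with Benjamini-Hochberg adjustment over all 18708 clusters at 0.05, and the fit was tested on simulated data. The number of arrays limits precision: the median SE was 0.312 log2 units. Array medians were 6.61 to 6.63, and no arrays were copies (at most 9 identical values a pair). SLU7, the 9 genes, the called genes of each list (or else the 2 largest non-overlapping, not dim) and the 5 clusters nearest CDH1 were named by rule. The members, lists and alternatives (replicate block, dim filter, quantile normalization, median centring, trend and robust prior, array weights, threshold 0.01, stand-apart arrays, leave-one-out) were chosen with earlier results of these data known.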

Additional observations from a re-analysis of the deposited data

How the results depend on the processing

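The count of called clusters (81) was 0 with the replicate block, without both stand-apart arrays, at a threshold of 0.01 and without any 1 array (0 to 0, with 1833 to 2573 clusters at an unadjusted p under 0.05 in limma), 100 with quantile normalization, 81 with median centring, 324 without dim clusters, 441 with a trend and robust prior, 575 with array weights and 783 with the stand-apart arrays as a block. The count of called junction genes (1, CDH1) was 0 in the same settings as the former. In each of them limma gave 2 or 3 of the 9 an unadjusted p under 0.05 (3 in the main fit, to which the 0.01 threshold was applied). It was 2, CDH1 and CTNND1, without dim clusters, with a trend and robust prior, with array weights and with the stand-apart arrays as a block, a block read off these same arrays. Same-numbered arrays did not deviate together (correlations of -0.38, -0.31 and 0.14), so the replicate block rests on a number alone, and under it CDH1 had an adjusted p of 0.161 and CTNND1 of 0.204. Without 1 array, 4 to 5 of the 9 genes had groups that did not overlap, all lower, where the share of all clusters lower without overlap also rose, from 9.21% to between 12% and 16%, and the median ran from -0.53 to -0.25, the latter without control replicate 1. The signs of JUP (-0.43 to 0.14), PVRL2 (-0.20 to 0.13) and DSC2 (-0.24 to 0.055) turned in some of these analyses. Each of the 9 genes has 1 cluster, so averaging clusters could change nothing. The cause of these shifts was not tested.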
